A study of Mus musculus with 8 samples.

Results

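The ZBTB genes are the mouse genes whose symbol is Zbtb followed by a number and at most 1 letter. The count table held 40 of them among 55536 genes, and the 34 with a mean of at least 1 CPM (counts scaled to a common library size) over all libraries are described here, with Zbtb20 set against the other 33. Zbtb20 was singled out because its RNA was much lower after Klf4 knockdown in these same libraries, and the 34 were chosen by their mean level. Poly(A) RNA was measured in alphaTC6, a glucagon-producing line from the mouse pancreas with a wild-type label, after a 48 h reverse transfection with Lipofectamine RNAiMax. The 4 control libraries came from cells given a scramble siRNA (siScramble) and the 4 others from cells given an siRNA against Klf4, a zinc finger transcription factor. Batch 1 held scramble replicates 1 and 2 and Klf4 siRNA replicates 1, 2 and 4, and batch 2 held scramble replicates 3 and 4 and Klf4 siRNA replicate 3. The extraction text speaks of isolated islets although each sample is labelled as the cell line. All groups share the line and the transfection, and no untransfected cells were analysed here.

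ZBTB proteins join a BTB domain, through which they form dimers and recruit corepressors such as NCOR or, in some members, the CUL3 ubiquitin ligase, to a row of C2H2 zinc fingers that bind DNA. Most members studied act as repressors that fix a cell lineage or hold back growth genes. Zbtb20 is best known for silencing alpha-fetoprotein in the adult liver and for specifying hippocampal neurons, and in beta cells it represses Fbp1, a gluconeogenic enzyme gene.

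Libraries held 45954151 to 64185987 counts. Klf4 had 35.1 to 46.8 CPM in the controls and 11.5 to 19.8 CPM after Klf4 siRNA (log2 fold change -1.33, SE 0.17, edgeR adjusted p = 0.0083). Its adjusted p was 0.052 without scramble replicate 1 and 0.104 in batch 1 alone. Of 9 alpha cell markers, 8 had enough counts to be tested and Gc was at 0.023 CPM; 4 of the 8 were lower after Klf4 siRNA and none was higher, where 6.81% of all tested genes were lower and 4.88% higher. Of 6 beta cell markers Ins1, Ins2 and Pdx1 were at 0 in every library, Iapp and Slc2a2 had 0.171 and 0.140 CPM and Mafa had 3.17 CPM, and the markers of delta, PP, mesenchymal, endothelial and leukocyte cells each summed to at most 0.574 CPM in any library. Of the acinar and ductal markers, Cela1 (6.56 CPM) and Sox9 (2.38 CPM) exceeded 1 CPM. The labels do not say whether replicates were separate cultures, so p-values measure the spread between these libraries.

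Zbtb20 (ENSMUSG00000022708) lies on chromosome 16 from 42875881 to 43642602 of GRCm38, plus strand. It is protein-coding with 21 annotated transcripts, of up to 15 exons, and its exons cover 30730 bases of a span of 766722 bases. In the scramble libraries it had 283 and 277 CPM in batch 1 and 246 and 199 CPM in batch 2. After Klf4 siRNA it had 148, 138 and 136 CPM in batch 1 and 153 CPM in batch 2. Every Klf4 siRNA library was below every scramble library, and the control libraries were spread more widely than the knockdown libraries. The means were 250.9 ± 38.4 CPM (SD, n = 4) and 143.6 ± 8.36 CPM (SD, n = 4). With batch in the model the log2 fold change was -0.83 (SE 0.12), or 56.3% of the control level, given as a description because Zbtb20 was chosen for this difference. In RNA from whole cultures, fewer cells with the transcript and less of it per cell cannot be told apart. No other reported ZBTB gene had a log2 fold change outside -0.20 to 0.34.

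Zbtb20 took 18.3 ± 1.72% (SD, n = 4) of the counts of the 34 genes in scramble libraries and 11.2 ± 0.793% (SD, n = 4) after Klf4 siRNA. The other 33 genes together had 1112 ± 50.9 CPM in the controls and 1142 ± 42.6 CPM after Klf4 siRNA, and these sums overlapped between treatments. The order of the scramble libraries was the same for both quantities: the 33 genes summed to 1157, 1153, 1084 and 1054 CPM in scramble replicates 1 to 4. Scramble replicate 4 was the lowest control for 20 of the 34 genes, Zbtb20 included, against 27.4% of all tested genes. That library also had the largest share of counts on Gm42418, a locus that overlaps ribosomal RNA repeats, with 1.58% against 0.0765% to 0.660% in the other libraries, and the part of this in the ZBTB levels was not tested. Without scramble replicate 4 the log2 fold change of Zbtb20 was -0.90.

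The treatments lay further apart for Zbtb20 in batch 1 than in batch 2, a difference that did not pass the threshold in the main interaction fit. Klf4 siRNA minus scramble was -0.996 on the log2 CPM scale within batch 1 and -0.53 within batch 2, where a single knockdown library stood against 2 controls. The interaction of batch and treatment for Zbtb20 was 0.46 on the log2 scale with an unadjusted edgeR p of 0.028 and an adjusted p of 0.999 over 16333 genes. No ZBTB gene and 0% of all tested genes passed the threshold for the interaction in edgeR, while 3 of the 34 ZBTB genes and 540 genes in all had an unadjusted p under 0.05. Limma-voom and DESeq2 also called 0. The Zbtb20 interaction did pass when scramble replicate 3 was left out (adjusted p = 0.00085, interaction 0.62) and when genes of low count were kept (adjusted p = 7e-05, interaction 0.45). Without scramble replicate 3, batch 2 held 1 library of each treatment, its control being scramble replicate 4, so the spread came from batch 1. In every interaction fit batch 2 held a single knockdown library, and the gene itself had been chosen for its treatment difference. The batch coefficient of Zbtb20 did not pass the threshold (batch 2 against batch 1, log2 fold change -0.13, SE 0.13, edgeR adjusted p = 0.50). It combined unlike differences: batch 2 minus batch 1 was -0.34 among scramble and 0.13 among Klf4 siRNA libraries on the log2 CPM scale.

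**Figure D1:**
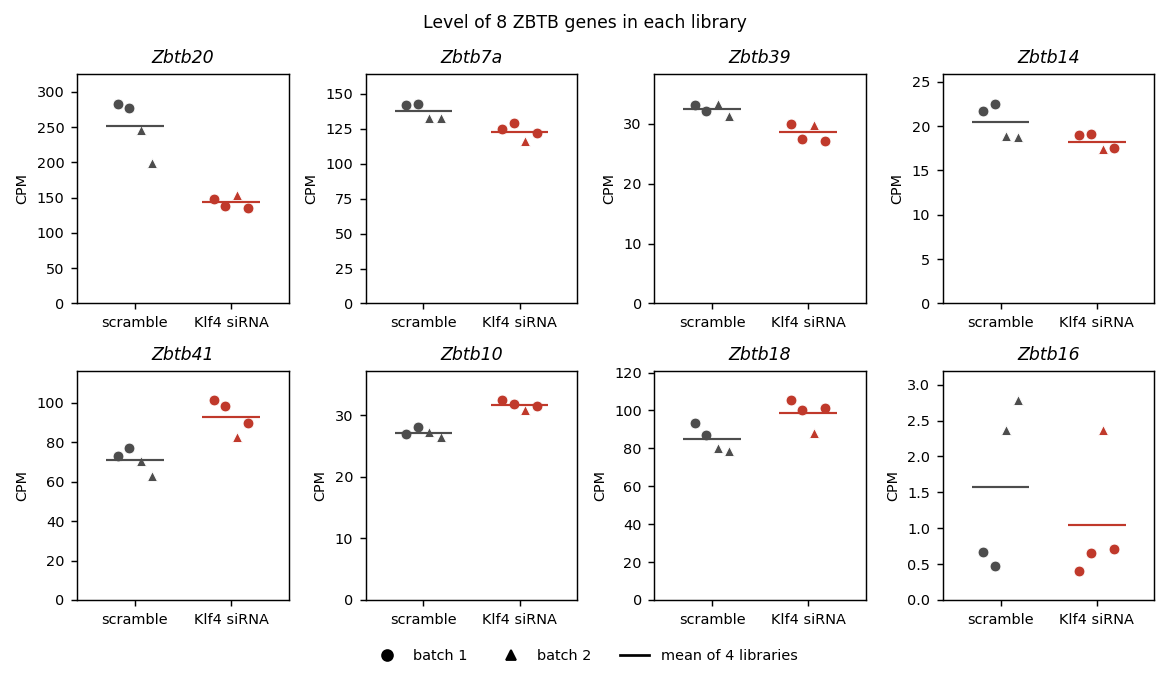
Level in CPM of Zbtb20, the 6 other ZBTB genes that passed the threshold for treatment, and Zbtb16, in each library; circles are batch 1, triangles batch 2, and lines the mean of 4 libraries. Zbtb20 sits between 199 and 283 CPM in scramble libraries and between 136 and 153 CPM after Klf4 siRNA, whereas Zbtb16 separates by batch.

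Among the other 33 genes, 6 passed an edgeR adjusted p of 0.05 for Klf4 siRNA against scramble, 3 higher and 3 lower, that is 18.2%, beside 11.7% of all genes tested (4.88% higher and 6.81% lower). Zbtb41, Zbtb10 and Zbtb18 rose, and Zbtb7a, Zbtb39 and Zbtb14 fell. Without the batch term 2 of the 33 passed, both higher, and 409 genes in all instead of 1909. The median log2 fold change of the 33 was 0.0032, against 4.3e-05 for all tested genes, with 17 positive and 16 negative values. Of the 33 genes, 21 had the same direction within both batches, or 63.6%, against 64.8% of all tested genes. The 6 that passed were among these 21, which their choice by a fit over both batches makes likely. In 5 of the 33 genes the treatments did not overlap (3 lower, 2 higher), or 15.2%, against 10.5% of all tested genes (5.55% lower, 4.97% higher).

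Zbtb41 (ENSMUSG00000033964, chromosome 1, 139422288 to 139453005) rose most. It had 73.0, 77.1, 70.4 and 62.7 CPM in scramble replicates 1 to 4 and 101, 98.5, 82.4 and 89.7 CPM in Klf4 siRNA replicates 1 to 4, with no overlap. The log2 fold change was 0.34 (SE 0.04, edgeR adjusted p = 0.00011), and it was 0.36 within batch 1 and 0.31 within batch 2. Zbtb10, which binds telomeric variant repeats, had 27.0, 28.0, 27.4 and 26.4 CPM in scramble replicates 1 to 4 and 32.4, 31.9, 30.8 and 31.5 CPM in the knockdown replicates 1 to 4. These groups did not overlap, and the log2 fold change was 0.21 (SE 0.04, edgeR adjusted p = 0.00089). For Zbtb41 and Zbtb10 the rise passed under all 17 alternatives tried.

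Zbtb18, a repressor in cortical neuron development also called RP58, had the rank of 3 by CPM among the 34 genes. It had 93.4, 87.3, 80.1 and 78.6 CPM in scramble replicates 1 to 4 and 105, 100.3, 88.3 and 101 CPM in Klf4 siRNA replicates 1 to 4. The treatments overlapped, since the batch 2 knockdown library lay between the 2 controls of batch 1, while within each batch every knockdown library was above both controls. Its log2 fold change was 0.17 (SE 0.03, edgeR adjusted p = 0.00098), and without the batch term its adjusted p was 0.155.

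Zbtb7a, which encodes the fetal globin repressor LRF and directs lymphoid fate, was the member with the smallest adjusted p. It had 142, 143, 133 and 132 CPM in scramble replicates 1 to 4 and 124, 129, 116 and 122 CPM in Klf4 siRNA replicates 1 to 4, so every knockdown library was below every control. The log2 fold change was -0.19 (SE 0.03, edgeR adjusted p = 9.7e-05), and it was -0.19 within either batch. Without the batch term its adjusted p was 0.084.

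Zbtb39 went from 32.5 ± 0.964 to 28.6 ± 1.501 CPM (SD, n = 4 each) without overlap, with a log2 fold change of -0.18 (SE 0.04, edgeR adjusted p = 0.0091). Zbtb14, a repressor first described at the Myc promoter, had 21.7 and 22.5 CPM in the batch 1 controls and 18.9 and 18.8 CPM in those of batch 2. After Klf4 siRNA it had 19.0, 19.1 and 17.5 CPM in batch 1 and 17.4 CPM in batch 2, so the treatments overlapped across batches but not within them. Its log2 fold change was -0.20 (SE 0.05, edgeR adjusted p = 0.0090). Zbtb39 did not pass without scramble replicate 1 (adjusted p = 0.091) or without the batch term (0.076). Zbtb14 did not pass without scramble replicate 1 (0.056), scramble replicate 2 (0.087) or the batch term (0.310), or when a replicate block took the place of batch (0.055).

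**Figure D2:**
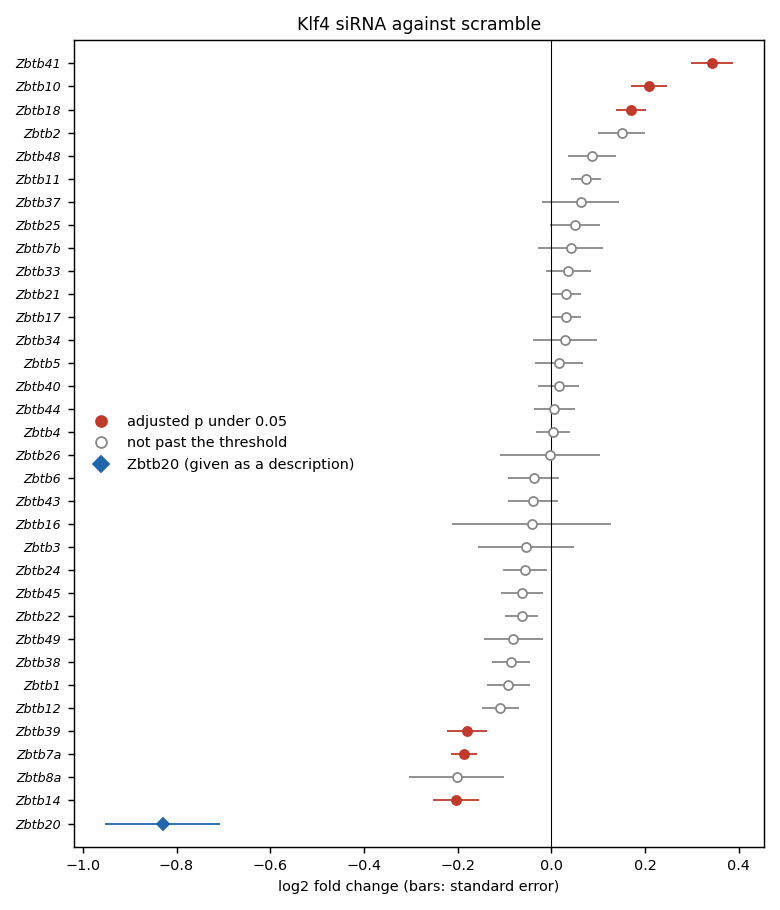
Log2 fold change of Klf4 siRNA against scramble, with its standard error, for the 34 ZBTB genes, ordered by value. Zbtb20 (-0.83) lies apart from the others, which run from -0.20 to 0.34, and the 6 filled circles mark those of the other 33 genes that passed the threshold.

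KLF proteins bind CACCC boxes, so start-site sequences were searched for CACCC on either strand (CACCC or GGGTG, which do not overlap each other). RefSeq start regions of 300 bases (250 before to 50 after the start, GRCm38.p6) were available for 35 of the 40 ZBTB genes in 48 entries. Of these entries 32 (66.7%) held the word, against 57.5% of 32851 entries for all genes. The following stretches upstream of the start are shown for the gene with the largest difference and for the genes with the smallest adjusted p in each direction. Capitals mark the word, and each stretch is cut where the first annotated exon begins or at the start.

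Zbtb20, chr16:43247034-43247283, plus strand: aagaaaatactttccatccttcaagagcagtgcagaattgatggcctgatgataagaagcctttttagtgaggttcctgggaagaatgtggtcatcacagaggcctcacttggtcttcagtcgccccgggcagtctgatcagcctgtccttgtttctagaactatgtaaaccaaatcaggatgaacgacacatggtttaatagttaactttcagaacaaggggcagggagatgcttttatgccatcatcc
Zbtb7a, chr10:81136021-81136270, plus strand: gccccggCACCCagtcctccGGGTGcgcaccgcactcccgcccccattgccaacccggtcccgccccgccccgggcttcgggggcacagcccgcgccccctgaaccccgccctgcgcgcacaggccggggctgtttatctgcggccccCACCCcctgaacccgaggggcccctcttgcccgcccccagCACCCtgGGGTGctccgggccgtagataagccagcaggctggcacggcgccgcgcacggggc
Zbtb41, chr1:139422133-139422287, plus strand: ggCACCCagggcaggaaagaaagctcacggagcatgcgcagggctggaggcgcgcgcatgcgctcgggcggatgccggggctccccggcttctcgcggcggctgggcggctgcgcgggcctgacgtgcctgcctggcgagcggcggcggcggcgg

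All 3 starts lie inside the annotated genes, 371403 bases after the first base for Zbtb20, 1051 for Zbtb7a and 95 for Zbtb41. The Zbtb20 window of 300 bases held 0 copies of the word and 3 CpG dinucleotides. Zbtb7a, which fell, held 5 copies and 31 CpG, and Zbtb41, which rose, held 2 copies (1 of them in the stretch shown) and 45 CpG, where the median over ZBTB entries was 25 CpG and over all genes 7. Further starts of Zbtb20 were not analysed here, and these letters show neither binding nor its absence.

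The remaining 27 genes did not pass for treatment, with log2 fold changes from -0.20 (Zbtb8a) to 0.15 (Zbtb2), a median standard error of 0.05 and a smallest edgeR adjusted p of 0.058 (Zbtb2). The role groups hold 2 to 15 genes, too few to set against the 11.7% of all tested genes that passed. None of the 3 readers of methylated DNA passed: Zbtb4, Zbtb33 (Kaiso) and Zbtb38 had log2 fold changes of 0.0032, 0.036 and -0.087. Of 5 genes known from blood cell lineages, Zbtb7a alone passed, while Zbtb1, Zbtb7b (ThPOK), Zbtb16 (PLZF) and Zbtb25 ran from -0.092 to 0.050. Of 4 genes tied to telomeres or genome maintenance, Zbtb10 alone passed; Zbtb24, mutated in an immunodeficiency with centromeric instability, had -0.056 and the telomere-binding Zbtb48 had 0.087. Of 4 genes tied to growth control, Zbtb14 alone passed, and Zbtb17 (Miz-1, a partner of Myc) had 50.7 ± 1.31 and 51.9 ± 1.00 CPM (SD, n = 4 each) and a log2 fold change of 0.031.

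Besides Zbtb20, Zbtb8a and Zbtb43 had an unadjusted interaction p under 0.05. Klf4 siRNA minus scramble for Zbtb8a was -0.39 within batch 1 and 0.095 within batch 2 on the log2 CPM scale, and Zbtb43 had -0.13 and 0.13. Their unadjusted edgeR p-values for the interaction were 0.015 each and their adjusted p-values 0.999.

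**Figure D3:**
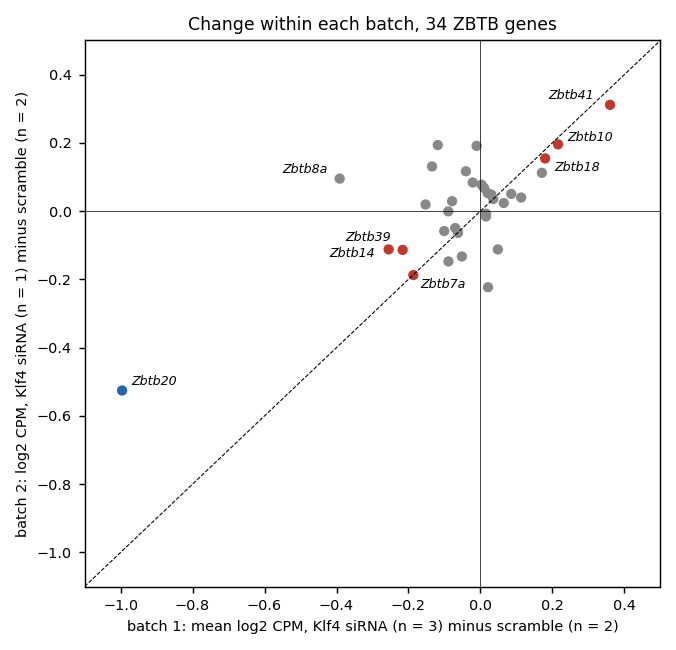
Difference in mean log2 CPM, Klf4 siRNA minus scramble, within batch 2 against that within batch 1 for the 34 ZBTB genes; the dashed line marks equal values, blue is Zbtb20 and red the 6 genes past the threshold. Zbtb20 lies at -0.996 and -0.53, off the line, and Zbtb7a at -0.19 on both axes.

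Batch 2 was then compared with batch 1. Zbtb16 reached the mean of 1 CPM only through batch 2, so the choice of genes used its batch difference and it was left out of the counts. Of the other 33 genes, 14 (42.4%) had an edgeR adjusted p under 0.05, beside 32.7% of all tested genes. Of the 14, 2 were higher in batch 2 and 12 were lower, where all tested genes split into 16.8% higher and 15.9% lower. The median log2 fold change of the 33 was -0.095, against 0.00065 for all tested genes, and 26 of the 33 values were negative. All 14 differed in the same direction among scramble and among Klf4 siRNA libraries, which their choice by a fit over both treatments makes likely. In 8 of the 33 genes (24.2%) the batches did not overlap, against 29.4% of all tested genes in either direction. All 8 were lower in batch 2, and the share of all tested genes that were lower without overlap was not counted. With library size alone in place of TMM scaling, the 34 genes with Zbtb16 split into 2 higher and 13 lower (3 and 12 with TMM), and all tested genes into 2111 higher and 3316 lower instead of 2747 and 2596. What set the batches apart is not stated in the labels. The alpha cell markers summed to 5628 to 5939 CPM in batch 1 and 12576 to 13917 CPM in batch 2, and the ductal markers to 1.07 to 1.57 and 3.74 to 4.63 CPM; their part in the ZBTB differences was not tested.

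Zbtb16, the PLZF gene of innate-like T cells and of germline stem cells, was the lowest of the 34 genes in level and had the largest batch difference. It had 0.663 and 0.467 CPM in the batch 1 controls and 0.406, 0.657 and 0.716 CPM in the batch 1 knockdown libraries. In batch 2 it had 2.37 and 2.78 CPM in controls and 2.37 CPM after Klf4 siRNA, with 125 to 161 counts per library there and 20 to 38 in batch 1. The log2 fold change was 2.08 (SE 0.17), or 4.22-fold, given as a description because its mean was 0.582 CPM in batch 1 and 2.51 CPM in batch 2. By treatment it was -0.042 (SE 0.17).

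The largest falls in batch 2 were those of Zbtb7b and Zbtb3. Zbtb7b, the ThPOK gene that commits T cells to the helper lineage, had 12.7 ± 1.14 CPM (SD, n = 5) in batch 1 and 9.23 ± 0.275 CPM (SD, n = 3) in batch 2, without overlap, with a log2 fold change of -0.45 (SE 0.07, edgeR adjusted p = 6.2e-05). Zbtb3 had 3.32 ± 0.274 and 2.56 ± 0.227 CPM, with a log2 fold change of -0.39 (SE 0.11, edgeR adjusted p = 0.0081). Zbtb3 lies on chromosome 19, whose 547 tested genes had a median of -0.12 between batches, and 41.9% of them were called lower. Without Klf4 siRNA replicate 3 the adjusted p of Zbtb3 was 0.147.

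Zbtb12, Zbtb18, Zbtb41 and Zbtb4 fell by 0.20, 0.20, 0.20 and 0.19 on the log2 scale in batch 2 (edgeR adjusted p = 0.00052, 7.2e-05, 0.0041 and 0.00065). Zbtb18 and Zbtb41 rose after Klf4 siRNA and were lower in batch 2. Zbtb7a and Zbtb14, which fell after Klf4 siRNA, were also lower in batch 2 (log2 fold change -0.10 and -0.17, edgeR adjusted p = 0.0086 and 0.014). Zbtb41 had an adjusted p of 0.065 without Klf4 siRNA replicate 3. Zbtb8a and Zbtb2 rose by 0.32 and 0.16 (edgeR adjusted p = 0.023 and 0.018). Zbtb8a did not pass without Klf4 siRNA replicate 3 (log2 fold change 0.11, adjusted p = 0.559) or scramble replicate 4 (0.052) or in limma-voom (0.051), nor did Zbtb2 without scramble replicates 2 or 3 (0.089 and 0.091) or Klf4 siRNA replicate 3 (0.057), or with library size alone (0.072).

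**Figure D4:**
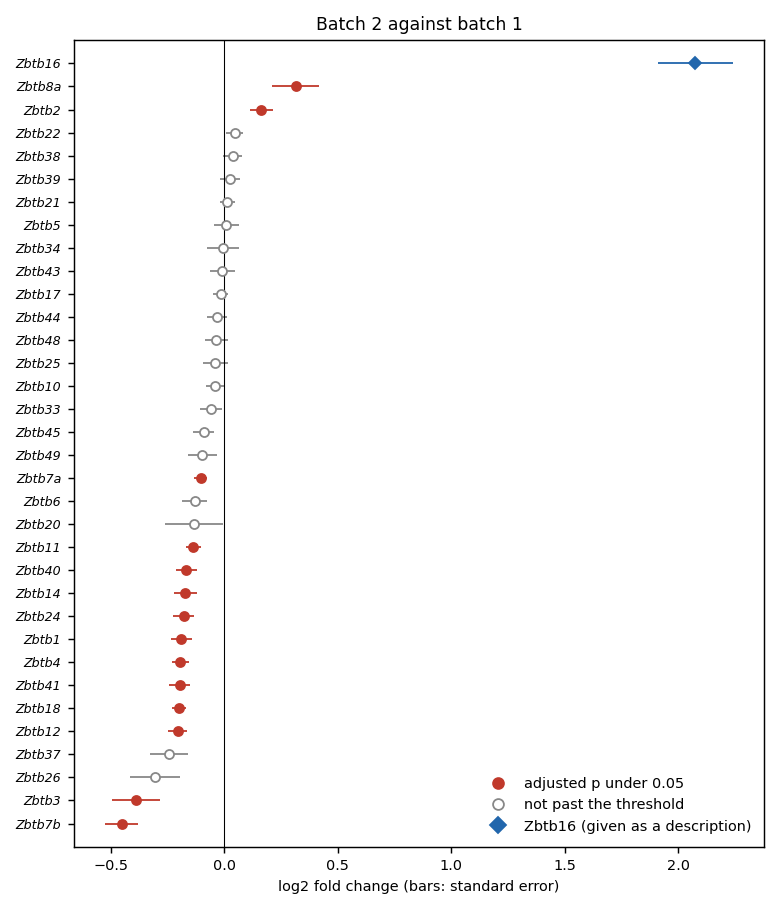
Log2 fold change of batch 2 against batch 1, with its standard error, for the 34 ZBTB genes; filled circles passed an adjusted p of 0.05 and the diamond is Zbtb16, given as a description. Zbtb16 stands at 2.08, 12 genes are called lower between -0.45 and -0.10, and Zbtb20 at -0.13 is not called.

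Levels of different genes were compared as CPM per kilobase of annotated exon. On this scale Zbtb20 had 8.17 ± 1.25 (SD, n = 4) in scramble libraries, rank 9 of 34, and 4.67 ± 0.272 (SD, n = 4) after Klf4 siRNA, rank 17. Over all 8 libraries it had rank 12, against rank 1 in CPM, while its annotated exons are the longest of the 34. Zbtb7a had rank 1 in scramble libraries (20.2 ± 0.823) and over all 8 libraries (19.1 ± 1.36, SD, n = 8), and rank 2 after Klf4 siRNA (18.05 ± 0.761), just behind Zbtb22 (18.2 ± 0.573). Over all 8 libraries it was followed by Zbtb22 (18.7 ± 0.818), a gene of the major histocompatibility region, and Zbtb12 (17.6 ± 1.39). Zbtb18 (14.96 ± 1.62), Zbtb17 (13.2 ± 0.325) and Zbtb4 (10.7 ± 0.846) came next. From Zbtb7a to Zbtb17 the mean ± SD ranges of neighbours overlapped, and those of Zbtb17 and Zbtb4 did not. The neighbours of Zbtb20 (6.42 ± 2.05, SD, n = 8), Zbtb6 (6.60) and Zbtb45 (5.97), lay within its SD. At the lower end were Zbtb34 (1.39 ± 0.0838), Zbtb37 (1.25 ± 0.157), Zbtb49 (1.04 ± 0.0516) and Zbtb16 (0.247 ± 0.191). The median of the 34 was 4.71. By the longest annotated transcript Zbtb20 again had rank 12, at 7.33, while Zbtb49 moved to 2.90 and rank 26.

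**Figure D5:**
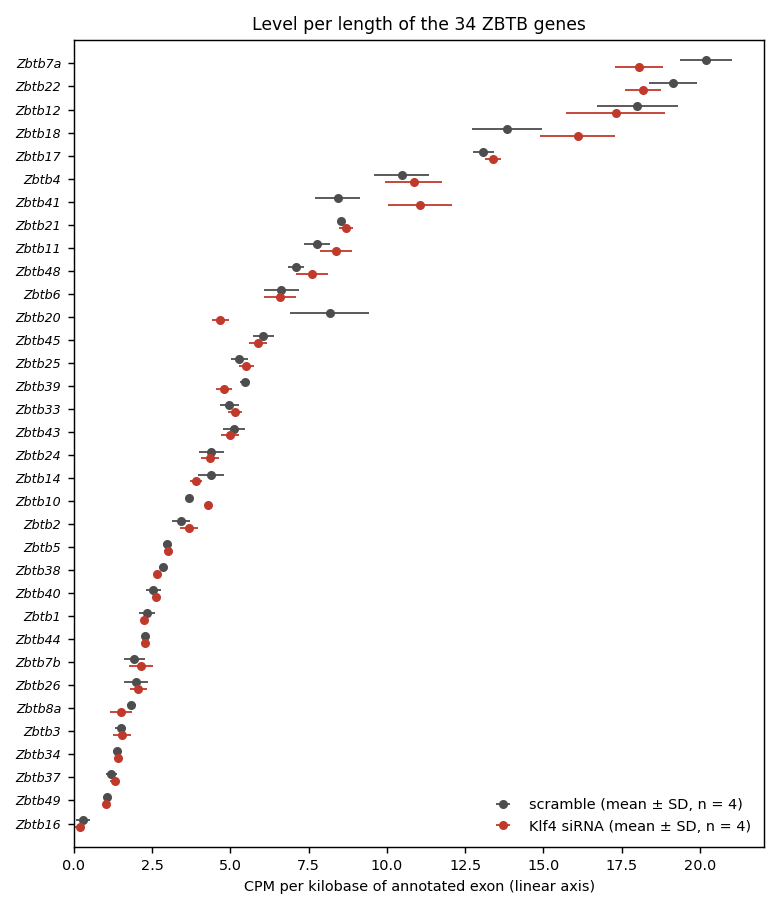
Level in CPM per kilobase of annotated exon (linear axis) for the 34 ZBTB genes, mean and SD of the 4 libraries of each treatment. Zbtb20 moves from 8.17 in scramble to 4.67 after Klf4 siRNA, while most genes overlap between treatments.

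In CPM the 34 genes had a median of 26.3 and ran from 1.30 to 197. The cut at 1 CPM fell between Zbtb16 (1.30 CPM) and Zbtb3 (3.03 CPM) above it and Zbtb46 (0.803 CPM), a dendritic cell gene, and Zbtb42 (0.304 CPM) below it. Zbtb8b, Zbtb32, Zbtb9 and Zbtb7c had 0.292, 0.180, 0.033 and 0.0045 CPM; Zbtb9 and Zbtb7c had too few counts to be tested. Some members share annotated exons with other genes, and whether reads were counted by strand is not given in the sources used here. Zbtb6 and Zbtb26 share 449 exonic bases on the same strand, Zbtb37 shares 2942 with opposite-strand genes that include Gas5, and Zbtb14 shares 565 with an opposite-strand annotation. Zbtb20 shares 83 and 104 of its exonic bases with same-strand and opposite-strand annotations.

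The controls varied more for Zbtb20 than for most of the family. The SD of the 4 scramble libraries was 15.3% of the mean for Zbtb20 against a median of 7.20% for the other 33 genes, and after Klf4 siRNA it was 5.82% against 5.25%. The largest value among the 33 in scramble libraries was 74.9% (Zbtb16). These spreads include batch differences, and the treatments held the batches in unlike numbers.

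The other BTB zinc finger genes, whose symbols do not start with Zbtb, were Bcl6, Bcl6b, Hic1, Hic2, Patz1, Gzf1, Mynn and Zfp131. All 8 were tested, none was higher and 2 were lower, with a median log2 fold change of -0.061; over all tested genes 4.88% were higher and 6.81% lower. Bcl6b, a paralogue of the germinal centre regulator Bcl6, had 1.90 CPM on average and fell by 0.56 (SE 0.12, edgeR adjusted p = 0.0049). Its log2 fold change by batch was -1.601, and its log2 fold change by treatment was -0.21 without the batch term (adjusted p = 0.895) and -0.19 with a replicate block in its place (adjusted p = 0.810). Gzf1 fell by 0.12 (edgeR adjusted p = 0.024), and did not pass without scramble replicates 1 or 2 (0.103 and 0.165) or Klf4 siRNA replicate 1 (0.068), nor with a replicate block (0.058), library size alone (0.067) or batch 1 alone (0.0504).

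Of 15 genes for corepressors and the CUL3 ligase, 1 was higher and 2 were lower, with a median of -0.048, beside 4.88% higher and 6.81% lower over all tested genes. Hdac4, a class IIa deacetylase, rose by 0.11, and Hdac1 and Hdac2, the class I deacetylases of the SIN3 and NuRD complexes, fell by 0.12 and 0.11 (edgeR adjusted p = 0.019, 0.013 and 0.010). Hdac1 and Hdac2 did not pass without scramble replicate 2 (0.063 and 0.111) or Klf4 siRNA replicate 3 (0.137 and 0.071), nor in batch 1 alone (0.111 and 0.063). Hdac4 did not pass without scramble replicates 1 or 2 (0.150 and 0.070) or Klf4 siRNA replicate 3 (0.054), nor with a replicate block (0.058) or library size alone (0.066). The corepressor genes Ncor1, Bcor and Sin3a and the ligase gene Cul3 did not pass, with log2 fold changes from -0.093 to -0.017.

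Of 12 genes described elsewhere as targets of ZBTB20 in liver, beta cells, macrophages, pituitary or hippocampus, 9 were tested, none was higher and 2 were lower, with a median of -0.066 (all tested genes: 4.88% higher, 6.81% lower). Fbp1 had 40.9 CPM on average and a log2 fold change of -0.10 (SE 0.05, edgeR adjusted p = 0.239). Afp, at 0.493 CPM, had -0.18 (SE 0.24, edgeR adjusted p = 0.727). The forebrain transcription factor genes Foxp2 and Cux2 fell by 0.18 and 0.17 (edgeR adjusted p = 0.028 and 0.031). Foxp2 did not pass without scramble replicates 1 or 2 or Klf4 siRNA replicates 1 or 3 (0.125, 0.098, 0.066 and 0.114), in batch 1 alone (0.115), or with a replicate block (0.320, log2 fold change -0.11). Cux2 did not pass without scramble replicates 1, 2 or 3 or Klf4 siRNA replicates 2 or 3 (0.183, 0.071, 0.074, 0.067 and 0.115), in batch 1 alone (0.121) or with library size alone (0.056). Lpl, the highest of the list at 1313 CPM, had 0.066 (edgeR adjusted p = 0.220). Without the batch term none of the 7 genes called in these lists passed.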

How the data were processed

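Values are the whole-number counts per gene that the authors deposited, not normalized. Per the submitters' processing notes, FastQC, STAR, featureCounts, DESeq2 and the build mm10 were used, without versions; the deposited table's name mentions cutadapt. The annotation release and strand setting are not given in the sources used here. All 55536 gene identifiers matched GENCODE M21 (GRCm38), from which positions and lengths were taken. Every row named a gene.

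Genes kept by filterByExpr (16333) were scaled by TMM (factors 0.964 to 1.02) and tested with edgeR 4.0.16 in R 4.3.3 by a quasi-likelihood model (robust) with terms for batch and treatment, after the submitters' mention of edgeR with batch correction. P-values were two-sided and Benjamini-Hochberg adjusted over all tested genes, with a threshold of 0.05. The interaction had its own fit. The standard error is the absolute log2 fold change over the square root of F. CPM used the TMM-scaled library sizes, and log2 CPM a prior count of 2. No 2 libraries agreed within sampling noise (smallest chi-square per degree of freedom 10.2). In counts simulated for the treatment comparison over 16155 genes, 200 genes were changed. Of these, 96% of changes of 1 and 51% of changes of 0.3 on the log2 scale were recovered, with 8 false calls among 154. The data gave 1909 calls, so the threshold was stricter in unadjusted p in the simulation and the recovered shares need not hold for the data. Counts without molecular identifiers include PCR duplicates, so errors come from the spread between libraries.

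The members, roles and lists were chosen with earlier results of these data known. Named were Klf4, Zbtb20, members past the threshold for treatment, the 6 largest rises and falls past the threshold between batches, the highest and lowest per kilobase, those beside the level cut, and list genes past the threshold; other members were named once by role. Alternatives were DESeq2 1.42.0, limma-voom (limma 3.58.1), scaling by DESeq2 size factors or by library size, leaving out the batch term or batch 2, a replicate block, keeping every gene with a count, a 5 CPM minimum, the longest transcript as length, and each library left out.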

Additional observations from a re-analysis of the deposited data

Results flagged for a closer look

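Within each treatment, the gap between an extreme library and its nearest neighbour was divided by the full spread of those 4 values. Of 68 groups, 4 passed Dixon's 95% critical value, which chance passes in about 1 of 20 groups, or 3.4 here if the 4 libraries are alike. The knockdown libraries are not alike in batch (3 of batch 1 and 1 of batch 2), and the flag of Zbtb16 follows from the batch difference through which it reached the level minimum. Zbtb16 was highest in Klf4 siRNA replicate 3, the only knockdown library of batch 2 (2.37 CPM against 0.406 to 0.716, share 0.842), where both batch 2 controls were also high. Zbtb8a was highest among controls in scramble replicate 4 (4.77 CPM against 4.08 to 4.12, share 0.943). Zbtb49 was lowest among controls in the same library (8.20 CPM against 8.92 to 9.04, share 0.858). Zbtb17 was lowest in Klf4 siRNA replicate 2 (50.4 CPM against 52.4, share 0.976), within a range of 2.04 CPM.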

How the results depend on the processing

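The 6 ZBTB genes called for treatment stayed between 5 and 7 under 8 of the 9 alternatives that kept all libraries or batch 1, and were 2, both higher, without the batch term. Leaving out a library gave 4 to 7. Genes called in all (1909) were 409 without the batch term, 1232 in batch 1 alone, 1220 with a replicate block, and 934 to 2021 with a library left out, the lowest without scramble replicate 1; 1012 were called without scramble replicate 2 and 1232 without Klf4 siRNA replicate 3. The interaction was called for 0 genes, for 17 with no filter and for 0 to 13 with a library left out. Zbtb20 was the only ZBTB gene among them, called with no filter (1 gene) and without scramble replicate 3 (0 to 1). The 15 ZBTB genes called for batch, Zbtb16 included, were 10 to 18 under all alternatives. The log2 fold change of Zbtb20 by treatment kept its direction under all 17 alternatives (-0.998 to -0.77), with -0.998 in batch 1 alone and -0.995 without Klf4 siRNA replicate 3. A replicate block gave 5 ZBTB genes, losing Zbtb14. Deviations of same-numbered libraries correlated at 0.49, 0.42, 0.72 and -0.34 for numbers 1 to 4. After removing batch the values were -0.00053, -0.040, -0.30 and 0.12. Fitting batch and treatment constrains these residuals, so they cannot exclude pairing. By chi-square per degree of freedom, scramble replicates 1, 2 and 3 were nearest to the same-numbered knockdown library (10.4, 18.3 and 18.3). Scramble replicate 4 was nearest to Klf4 siRNA replicate 3 (47.1, against 86.2 for Klf4 siRNA replicate 4). The main fit used batch and not pairs. Without Klf4 siRNA replicate 3 no interaction can be fitted, and batch 2 then holds controls alone. In simulated counts with 200 changed genes, 51% of changes of 0.3 were recovered, and smaller changes were not simulated. The cause of these moves was not tested.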
